A study of Homo sapiens with 16 samples.

Results

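The genes described here encode subunits of respiratory complexes I, II and III, measured in the osteosarcoma cell line SAOS. A gene was taken as a member when its symbol in the array annotation began with NDUFA, NDUFB, NDUFC, NDUFS, NDUFV or UQCR, or named a succinate dehydrogenase subunit (SDHA to SDHD), leaving out the NDUFAF assembly factors and pseudogene names. The rule found 45 members among the 19775 genes of the array, each read by its brightest probe set that carried a single symbol. Of these, 42 are subunit genes: 33 of complex I, 3 of complex II (SDHA, SDHC and SDHD) and 6 of complex III (UQCR10, UQCR11, UQCRB, UQCRC1, UQCRC2 and UQCRQ). The other 3 names, NDUFB2-AS1, NDUFV1-DT and NDUFV2-AS1, are non-coding neighbours caught by their spelling and encode no subunit. A further 7 member names lay only on probe sets shared with other symbols and were not analysed here.

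Complex I passes electrons from NADH to ubiquinone, complex II feeds in electrons from succinate, and complex III hands them from ubiquinol to cytochrome c. Complexes I and III pump protons across the inner mitochondrial membrane, and complex II does not. Nearly all of their subunits are nuclear genes, so that many transcripts must be supplied together with those of the mitochondrial genome.

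SAOS cells lack a functional retinoblastoma protein (RB), a repressor of E2F target genes. The study held 4 groups of 4 arrays: cells that were not transfected (control), cells transiently transfected with human RB, with mouse SMYD2, a lysine methyltransferase, and with both. All groups were wild-type SAOS apart from the transfected genes, and an empty-vector arm is not among the labelled groups. In comparisons with the control, the effect of transfection alone therefore cannot be told apart from that of the genes. Comparisons among the transfected groups set transfected cells against transfected cells. An average over both kinds of comparison carries this limit in part. The arrays of each group carry the numbers 1, 3, 4 and 5, and 1 array of each group shares each number. No label ties the numbers to separate cultures or to a day, so the replicate spread behind every p-value below may be technical.

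The signal of RB1 ran from 6.24 to 6.98 on the log2 scale on the 8 arrays without RB. On the 8 arrays with it, RB1 ran from 7.40 to 8.10 with RB alone and from 7.90 to 9.62 with RB plus SMYD2. In both of these groups it was highest on the arrays numbered 4 and 5. The part of these RB1 differences in the comparisons below was not tested. The transfected SMYD2 is the mouse gene and was not checked with these human probes. The osteoblast-lineage genes RUNX2, ALPL, IBSP and COL1A1 lay above the 97th percentile of all genes, while SPP1 was low at 5.62. Of markers of other cells, 16 of 17 for epithelial, leukocyte, endothelial, fat and muscle cells averaged 6.47 or less; the exception was the epithelial EPCAM at 9.40. Array medians lay between 5.59 and 5.64. The array labelled SMYD2 number 1 stood apart. Its ACTB 3′ probe set exceeded the 5′ one by 3.53 log2 units, against 0.54 to 2.46 on the other 15. Such an excess can be a sign of shortened RNA. The same difference for GAPDH was also highest there but small, at 0.16 against -0.01 to 0.10 on the other 15.

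Signals of the subunit genes were high and even. Their means over 16 arrays ran from 9.89 (NDUFB7) to 13.76 (NDUFB9), with a median of 12.06, and 37 of 42 lay above the 90th percentile of all genes, whose median was 6.88. Probe sets differ in how well they bind, so these levels do not rank the subunits. The SD over 16 arrays had a median of 0.125 for the subunit genes, 0.150 for all genes and 0.161 for all genes above the 90th percentile of level. The steadiest were NDUFB9, UQCR10 and NDUFB3, accessory subunits with SDs of 0.032, 0.068 and 0.069. The most variable were NDUFA5, an accessory subunit of the peripheral arm (0.274), NDUFS7, the core subunit whose iron-sulfur cluster passes electrons to ubiquinone (0.264), and UQCRC2, a core protein of complex III (0.229).

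Differences with RB were small in these genes, and how many passed depended on the fit. Averaged over both pairs of groups (RB against control, and RB plus SMYD2 against SMYD2), 4 of 45 members passed an adjusted p of 0.05 (limma over all 19775 genes), 2 higher and 2 lower. That is 8.89% of members, where 12.7% of all genes passed (6.32% higher and 6.41% lower). With the replicate number as a block 8 members passed (17.8%, against 20.4% of all genes), and with array weights 11 of 45 passed (against 23.8% of all genes). Complex I held both that fell, NDUFA6 and NDUFC1. SDHC of complex II and UQCR11 of complex III rose. The median RB difference of the 45 members was -0.02, against 0.01 for all genes.

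Promoters of 3 of these genes are shown because their transcripts moved with RB, whose partner E2F has known binding motifs. Each is the 250 bases before the RefSeq start site in GRCh38.p14, on the gene's strand, with capitals marking the motifs searched. The motifs, searched on both strands, were GGGCGG for SP1, the CCAAT box, the ETS motif CCGGAAG, the YY1 motif AAGATGGCG, the NRF1 motif GCGCATGCG, and for E2F either TTTGGCGC or TTTCGCGC. The fourth, of NDUFS7, is shown because that gene differed between the replicate numbers and its window holds the NRF1 motif.
NDUFA6, chr22:42090773-42091022, minus strand: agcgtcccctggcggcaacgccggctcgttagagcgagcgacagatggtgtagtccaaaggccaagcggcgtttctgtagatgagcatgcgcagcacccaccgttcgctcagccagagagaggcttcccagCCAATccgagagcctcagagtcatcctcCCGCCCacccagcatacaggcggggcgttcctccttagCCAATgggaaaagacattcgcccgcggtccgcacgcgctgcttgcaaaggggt
NDUFC1, chr4:139302552-139302801, minus strand: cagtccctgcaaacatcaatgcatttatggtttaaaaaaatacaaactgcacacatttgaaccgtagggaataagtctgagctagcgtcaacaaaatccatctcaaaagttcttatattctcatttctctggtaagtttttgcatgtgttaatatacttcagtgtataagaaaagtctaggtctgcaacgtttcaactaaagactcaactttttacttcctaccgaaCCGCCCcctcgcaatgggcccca
UQCR11, chr19:1605463-1605712, minus strand: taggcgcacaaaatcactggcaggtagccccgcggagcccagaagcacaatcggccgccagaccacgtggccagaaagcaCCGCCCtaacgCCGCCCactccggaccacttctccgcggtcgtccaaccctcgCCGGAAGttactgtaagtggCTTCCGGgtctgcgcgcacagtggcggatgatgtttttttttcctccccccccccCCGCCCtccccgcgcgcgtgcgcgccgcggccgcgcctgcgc
NDUFS7, chr19:1383657-1383906, plus strand: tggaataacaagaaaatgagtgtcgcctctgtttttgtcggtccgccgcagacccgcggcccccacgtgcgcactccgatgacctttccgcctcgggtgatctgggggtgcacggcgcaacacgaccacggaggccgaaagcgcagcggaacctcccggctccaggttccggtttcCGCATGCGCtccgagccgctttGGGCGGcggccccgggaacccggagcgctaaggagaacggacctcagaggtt
The marked letters are 2 CCAAT boxes and 1 SP1 match in NDUFA6, 1 SP1 match in NDUFC1, 3 SP1 and 2 ETS matches in UQCR11, and 1 NRF1 and 1 SP1 match in NDUFS7. No E2F motif lay in these windows.

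RefSeq promoters of 300 bases, 250 before and 50 after the start, were matched for 38 of the 42 subunit genes and for 13456 protein-coding genes of the array. The NRF1 motif was in 13.2% of the subunit promoters and 2.99% of all. The letters TGCGCA, also part of the longer NRF1 consensus and able to overlap the first motif, were in 36.8% and 11.4%. The YY1 motif was in 15.8% against 3.02%, and the ETS motif in 21.1% against 15.3%. SP1 was in 57.9% against 62.2% and CCAAT in 23.7% against 36.2%. An E2F motif was found in 1 subunit promoter (2.63% against 1.72%). GC content was alike, with medians of 62.3% and 63.7%. Such matches describe letters only.

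NDUFA6, an accessory subunit that binds the mitochondrial acyl carrier protein, was the clearest case. Its signals on arrays 1, 3, 4 and 5 were 12.37, 12.20, 12.29 and 12.23 in control cells. In SMYD2 cells they were 12.49, 12.33, 12.21 and 12.27. In RB cells they were 12.16, 12.03, 12.03 and 12.12, and with both genes 12.07, 12.12, 11.95 and 11.98. Every array with RB was lower than every array without it. The pooled RB difference was -0.24 ± 0.05 (SE; 1.18-fold lower; adjusted p = 0.00306), lower in 8 of 8 pairs of equal number. It passed with any single array left out, at an adjusted p of at most 0.00967. Its second probe set gave -0.28, with an adjusted p of 0.0807.

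NDUFC1, an accessory subunit of the membrane arm, read 12.58, 12.50, 12.57 and 12.56 in control cells and 12.83, 12.65, 12.47 and 12.58 with SMYD2. With RB it read 12.49, 12.45, 12.42 and 12.37, and with both genes 12.43, 12.50, 12.40 and 12.42. Control and RB arrays did not overlap, whereas SMYD2 array 4 lay among the arrays with both genes. The pooled difference was -0.16 ± 0.05 (adjusted p = 0.0332, 8 of 8 pairs). The call was lost in 10 of 16 omissions of 1 array, with an adjusted p of up to 0.0712 without RB plus SMYD2 array 4. It was also lost with the second probe set (-0.13, adjusted p = 0.299) and with the mean of both (-0.14, adjusted p = 0.0817).

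SDHC, which anchors succinate dehydrogenase in the membrane and helps bind ubiquinone, read 11.24, 11.12, 11.16 and 11.20 in control cells and 11.12, 11.26, 11.15 and 11.23 with SMYD2. It read 11.32, 11.21, 11.36 and 11.36 with RB, and 11.36, 11.31, 11.34 and 11.41 with both genes. The lowest RB array fell within the control range, and the arrays with both genes lay above all SMYD2 arrays. The pooled difference was 0.15 ± 0.04 (1.11-fold; adjusted p = 0.0294, 8 of 8 pairs). The second brightest of its 7 probe sets gave 0.17. Both it and the brightest are of a kind that can read related sequences. The call was lost in 8 of 16 omissions of 1 array (adjusted p of up to 0.0683, without RB array 4).

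UQCR11, a small accessory subunit of complex III, read 12.93, 12.75, 12.98 and 12.96 in control cells and 13.08, 12.87, 12.97 and 13.01 with SMYD2. It read 12.98, 13.01, 13.26 and 13.25 with RB, and 13.10, 13.05, 13.39 and 13.41 with both genes. The arrays numbered 4 and 5 with RB lay above all others, while those numbered 1 and 3 were within or near the range without RB. The pooled difference was 0.24 ± 0.06 (1.18-fold; adjusted p = 0.0213, 8 of 8 pairs). A second probe set of the gene, at a mean signal of 8.28, gave -0.10 (adjusted p = 0.506), so the direction rests on the brighter one. The call was also lost without RB array 4, or without array 4 or 5 with both genes, with an adjusted p of up to 0.0536.

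**Figure D1:**
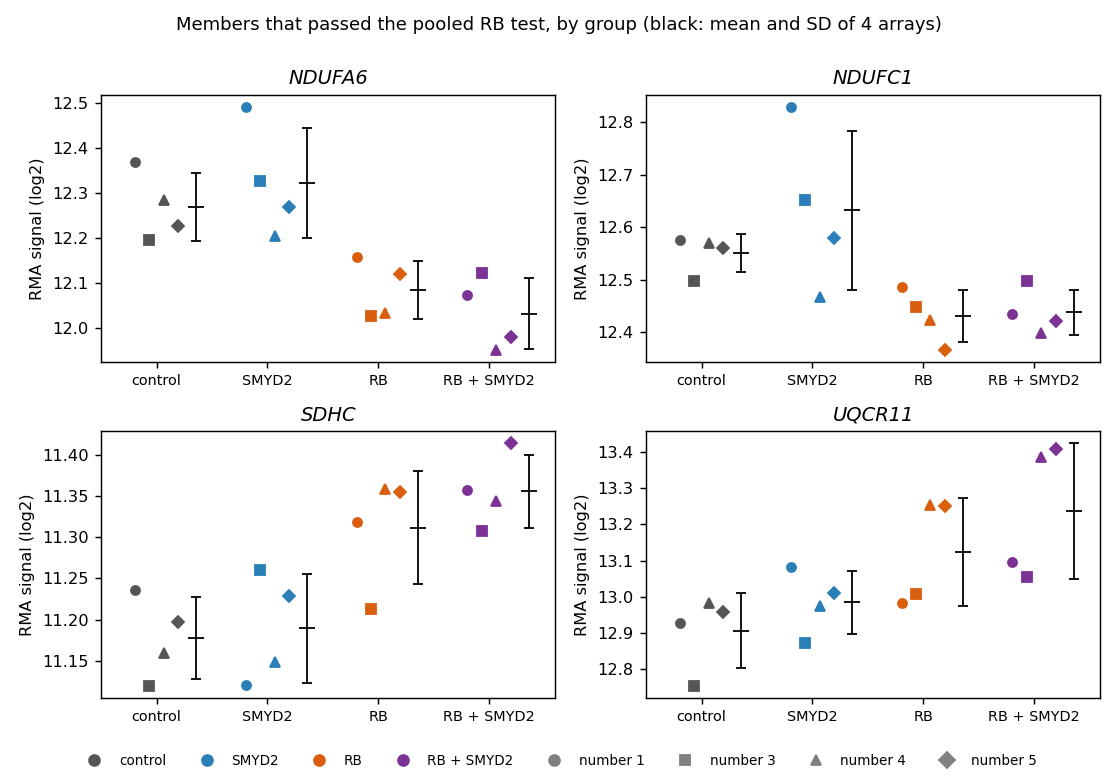
Log2 signals of NDUFA6, NDUFC1, SDHC and UQCR11 in the 4 groups, 1 point per array with its shape giving the replicate number, and the mean and SD of 4 arrays in black. NDUFA6 separates fully, with 11.95 to 12.16 on arrays with RB and 12.20 to 12.49 on arrays without; each vertical axis covers a narrow range.

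Among the 8 members that passed the pooled RB test with the replicate number as a block were the 4 above; UQCRC2 (0.24, blocked adjusted p = 0.0176), NDUFAB1, the acyl carrier protein itself (-0.13, 0.0122), NDUFB6 (-0.15, 0.0329) and the non-coding NDUFB2-AS1 (0.18, 0.0383) were the others. Without the block, the count of 4 fell to 1 without RB array 4 or without array 4 or 5 with both genes. It fell to 2 without control array 4, RB array 5 or array 1 with both genes. Without SMYD2 array 1 it was 5, and the member median turned from -0.02 to 0.02.

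In the main fit no pooled RB difference passed in the other 41 members, although some passed with the block or with array weights. Their core subunits of complex I included NDUFS1 (-0.12, 95% confidence interval -0.26 to 0.02), NDUFS3 (-0.13, -0.27 to 0.02), NDUFV1, which binds NADH (0.09, -0.03 to 0.21), and NDUFV2 (-0.04, -0.19 to 0.10). The interval was widest for NDUFS7 among these core genes (-0.03, -0.30 to 0.24). Of complex II, SDHA, the flavoprotein, differed by -0.05 (-0.15 to 0.05), and SDHD, the partner of SDHC in the membrane anchor, by -0.02 (-0.17 to 0.12). The SDHA probe set is of a kind that can read related sequences. Of complex III, UQCRC1 differed by 0.02 (-0.12 to 0.16) and UQCRC2 by 0.24. The second brightest probe set of UQCRC2 gave 0.37, and a dim one, at a mean signal of 5.16, gave -0.18. On SMYD2 array 1 UQCRC2 read 10.02, and on the other arrays without RB 10.52 to 10.82. Over all 45 members the intervals stayed between -0.34 and 0.44.

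**Figure D2:**
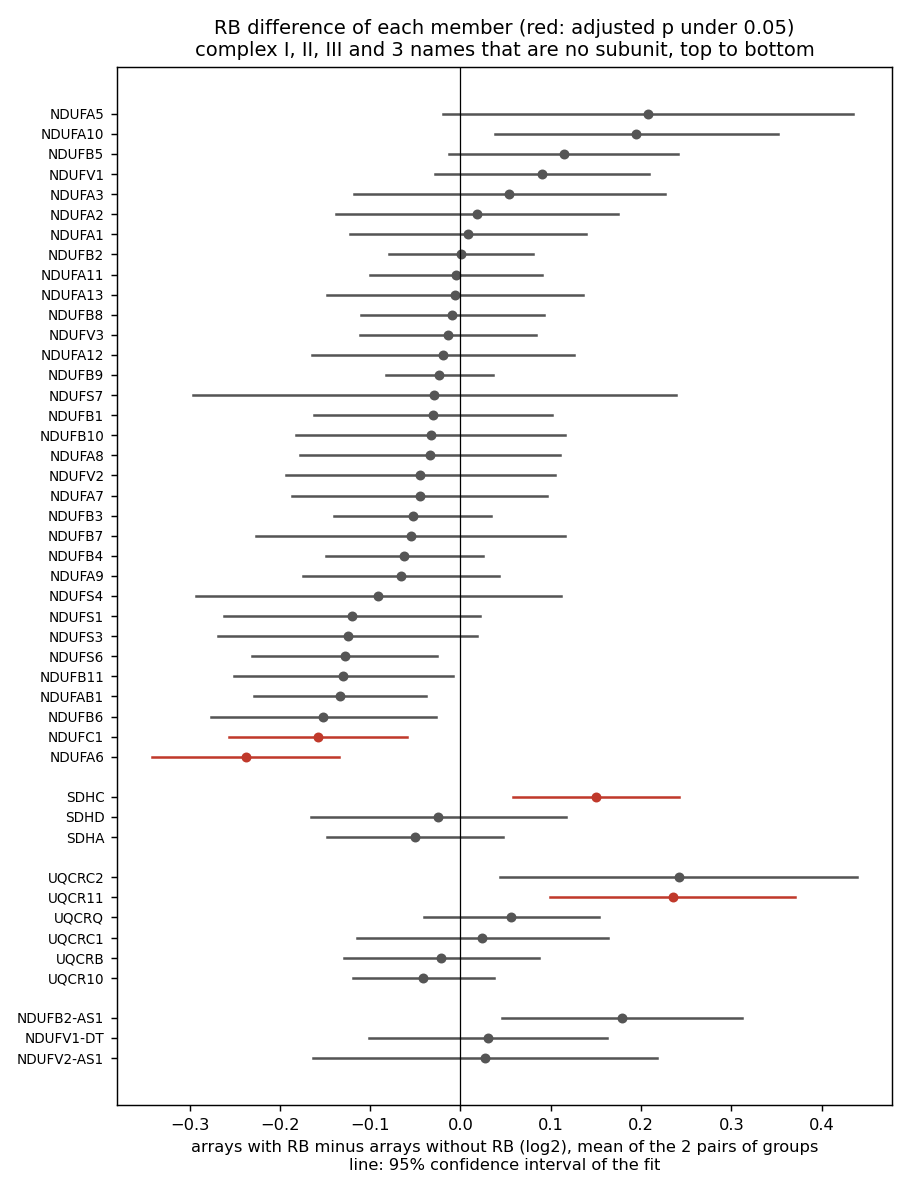
Pooled RB difference of each of the 45 members with its 95% confidence interval from the limma fit, by complex, on the log2 scale. Most points sit left of 0 in complex I (25 of 33 negative), and the 4 members past the threshold, in red, differ by -0.24 to 0.24. The side without RB includes SMYD2 array 1, the highest of 16 arrays for 31 of 42 subunit genes. Without that array the median over all members changed sign.

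Taken pair by pair, the RB comparisons called fewer members. RB against control called 0 of 45, where 2.96% of all genes passed. Ranked by p, NDUFA6 came first with -0.18 ± 0.07 (adjusted p = 0.210), then UQCR11 with 0.22 ± 0.09 (0.285) and SDHC with 0.13 ± 0.06 (0.356). The member median was 0.01, with 22 of 45 below 0, and the intervals of all members lay between -0.33 and 0.43. With the replicate number as a block UQCR11 passed (adjusted p = 0.0443), 1 of 45 members where 7.07% of all genes did.

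RB plus SMYD2 against SMYD2 called NDUFA6 alone (-0.29 ± 0.07, adjusted p = 0.0144), where 7.19% of all genes passed. That call was lost without array 4 or 5 with both genes (adjusted p = 0.0616 and 0.0539), and NDUFC1 joined it without SMYD2 array 4 (adjusted p = 0.0270). The member median was -0.05, with 30 of 45 below 0. Without SMYD2 array 1 the median was 0.01, and NDUFA6 still passed (adjusted p = 0.0224). With the block 7 members passed (15.6%, against 14.2% of all genes): NDUFA6, NDUFAB1, NDUFB6, NDUFC1 and NDUFS6 lower, UQCR11 and UQCRC2 higher.

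RB plus SMYD2 against control, which shares its arrays with both comparisons above, called 2 of 45 members, where 7.2% of all genes passed. UQCR11 was higher by 0.33 ± 0.09 (1.26-fold, adjusted p = 0.0338) and NDUFA6 lower (-0.24 ± 0.07, adjusted p = 0.0465), and neither gene's arrays overlapped between the groups. The count fell to 0 without any single control array, or without array 4 or 5 with both genes. It fell to 1 without any single RB array, SMYD2 array 3 or 5, or array 1 with both genes. RB against SMYD2 called 0 members (3.25% of all genes). Ranked by p, NDUFA6 (-0.24, adjusted p = 0.0735) and NDUFC1 (-0.20, adjusted p = 0.116) came first. NDUFC1 passed without SMYD2 array 4 (adjusted p = 0.0418).

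SMYD2 moved no member past the threshold. SMYD2 against control called 0 of 45 and 0% of all genes, with 1 member at an unadjusted p under 0.05. RB plus SMYD2 against RB also called 0 of 45 and 0% of all genes, and the pooled SMYD2 difference 0 and 0%; neither had a member at an unadjusted p under 0.05. The interaction, the RB difference with SMYD2 minus that without, called 0 members and 0% of genes, again with 0 at an unadjusted p under 0.05. Pooled SMYD2 differences of members ran from -0.19 (NDUFA5) to 0.10 (NDUFA2), and their intervals from -0.41 to 0.36; the intervals of the interaction ran from -0.69 to 0.79. Over all 19775 genes an unadjusted p under 0.05 was found for 572 in SMYD2 against control and 856 in RB plus SMYD2 against RB. It was found for 898 in the pooled SMYD2 difference and 582 in the interaction. Each count is a smaller share than the 0.05 that chance alone would give. The fits held no term for the replicate number, over which 15.9% of all genes differed. Whether this spread lowered the counts was not tested. With the number as a block, SMYD2 against control called 0 of 45 members, with 3 at an unadjusted p under 0.05. SMYD2 differences within the intervals above could go uncalled.

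One array shaped the direction in SMYD2 cells. SMYD2 against control was above 0 in 36 of 45 members with a median of 0.06, against 0.01 for all genes. SMYD2 array 1, the one with the highest ACTB ratio, was the highest of the 16 arrays for 31 of 42 subunit genes, with a median deviation of 0.25 from each gene's mean, against 0.04 for all genes. Without it the member median of SMYD2 against control was 9.250e-04, with 22 of 45 below 0. The same array was the lowest for 5 subunit genes. NDUFA5 read 10.19 on it and 10.97 to 11.45 on the other 15 arrays, and UQCRC2 read 10.02 on it and 10.52 to 10.96 elsewhere. Control array 3, at the other end, was the lowest of 16 for 13 subunit genes, and its ACTB difference of 0.54 was the smallest. Array 5 with both genes, RB array 4 and SMYD2 array 4 had ACTB differences of 0.55, 0.56 and 0.60. Their median deviations were -0.005, -0.01 and -0.05. RB array 1 had an ACTB difference of 1.63 and a median deviation of 0.002. The part of RNA quality in these results was not tested.

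**Figure D3:**
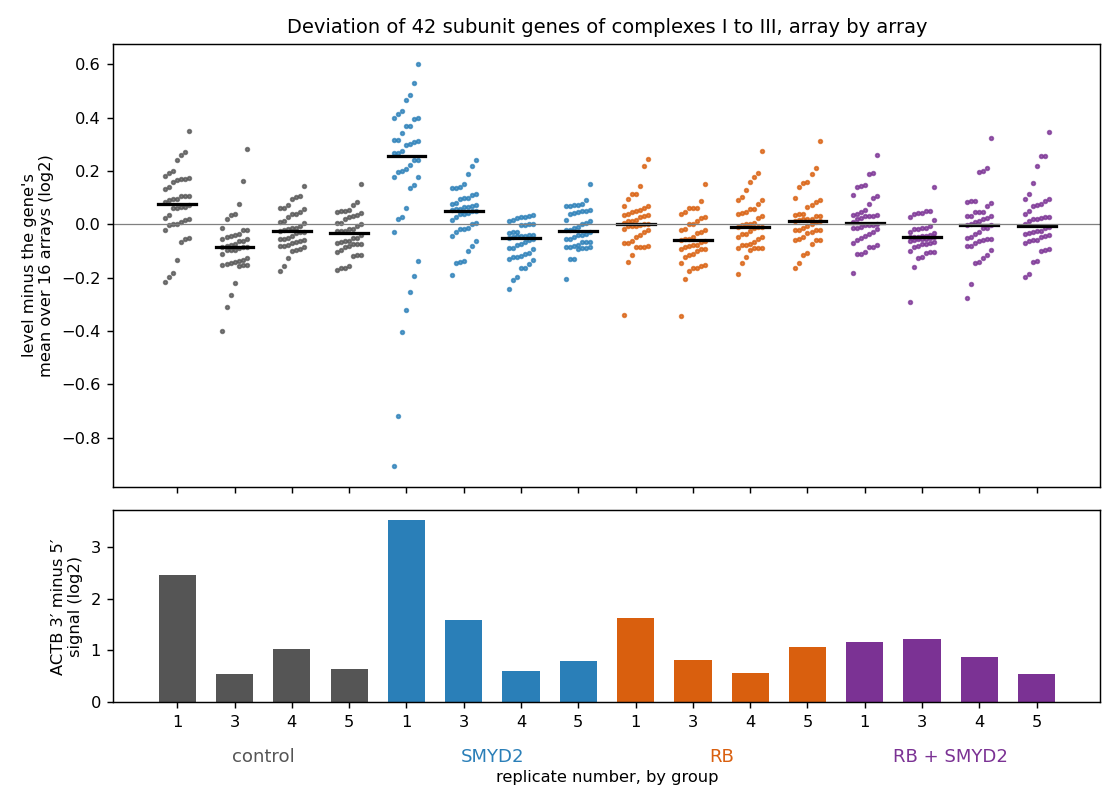
Upper panel, deviation of each of the 42 subunit genes from its mean over 16 arrays (log2) on each array, with the median as a bar; lower panel, the ACTB 3′ minus 5′ difference (log2) of the same arrays. SMYD2 array 1 has both the highest median deviation, 0.25, and the highest ACTB difference, 3.53, and the control array with number 1 is second in both, at 0.08 and 2.46. RB array 1, with an ACTB difference of 1.63, has a median deviation of 0.002.

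Members also differed between the replicate numbers, in about the share seen over all genes. With the group as a term, 6 of 45 members (13.3%) differed among the 4 numbers at an adjusted p of 0.05, where 15.9% of all genes did. They were NDUFS4, NDUFA12, NDUFS7, NDUFA8 and NDUFB1 of complex I and UQCR11. Arrays numbered 1 were higher for most members: the member median was -0.10 for number 3 minus 1, -0.12 for 4 minus 1 and -0.11 for 5 minus 1. These differences were below 0 in 38, 35 and 34 of 45 members, while the medians of all genes were 0.00 in each. Within groups, medians over the 42 subunit genes were -0.19, -0.29 and -0.24 in SMYD2 cells, where all genes had -0.04, -0.07 and -0.06. In control cells they were -0.17, -0.09 and -0.10 (all genes -0.03, -0.002 and -0.006). In RB cells they were -0.06, -0.02 and -0.00 (all genes 0.04, 0.03 and 0.04). With both genes they were -0.06, -0.04 and -0.01 (all genes -0.01, 0.003 and -0.005). Without SMYD2 array 1 the member medians were -0.07, -0.08 and -0.07. ACTB differences of arrays numbered 1 were 2.46 in control, 3.53 in SMYD2, 1.63 in RB and 1.17 in RB plus SMYD2 cells. On the other 12 arrays they were 0.54 to 1.58. GAPDH differences of arrays numbered 1 were 0.06, 0.16, 0.03 and 0.02 in the same order, against -0.01 to 0.10 on the other 12. The part of either was not tested.

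NDUFS4, an accessory subunit of the NADH-oxidising module, read 10.68 (control), 11.02 (SMYD2), 10.53 (RB) and 10.53 (both) on arrays numbered 1. Its means on numbers 3, 4 and 5 were 10.35 ± 0.08, 10.30 ± 0.05 and 10.33 ± 0.04 (SD, n = 4). All arrays numbered 1 exceeded all 12 others. The difference was -0.34 ± 0.08 for 3 minus 1, -0.39 ± 0.08 for 4 minus 1 and -0.36 ± 0.08 for 5 minus 1 (adjusted p = 0.0154, 0.00608 and 0.00920). The test over the numbers had an adjusted p of 0.00853, and 0.0507 without control array 1. The call for 3 minus 1 was lost without control array 1 or 3, at up to 0.0601. A second probe set, at a mean signal of 4.19, turned the direction for 3 and 4 minus 1 (0.0773 and 0.13) and gave -0.12 for 5 minus 1, none past the threshold.

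NDUFA8, which faces the intermembrane space, had means of 11.74 ± 0.15, 11.50 ± 0.11, 11.49 ± 0.02 and 11.51 ± 0.02 on numbers 1, 3, 4 and 5. NDUFB1, of the membrane arm, had 13.03 ± 0.15, 12.79 ± 0.03, 12.82 ± 0.07 and 12.83 ± 0.04. Both were thus highest on number 1, by 0.23 to 0.25 for NDUFA8 and 0.20 to 0.23 for NDUFB1, and passed in each of the 3 comparisons with it. Over all numbers the adjusted p was 0.0317 for NDUFA8 and 0.0446 for NDUFB1. These calls were lost in 9 and 12 of 16 omissions of 1 array, at up to 0.102 without SMYD2 array 1 and 0.246 without control array 1.

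NDUFA12, an accessory subunit related to the assembly factor NDUFAF2, divided the numbers otherwise. It read 12.81 to 13.05 on numbers 1 and 3 and 12.57 to 12.75 on numbers 4 and 5, without overlap (adjusted p = 0.00966 over the numbers). Number 4 minus 1 was -0.23 ± 0.06 and 4 minus 3 -0.24 ± 0.06. The call over the numbers held in each of the 16 omissions of 1 array, at an adjusted p of at most 0.0318.

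NDUFS7 went the other way. On arrays numbered 1 and 3 it read 10.34 and 10.12 in control, 10.18 and 10.18 in RB and 10.34 and 10.23 in RB plus SMYD2 cells. On numbers 4 and 5 it read 10.66 and 10.67 in control, 10.80 and 10.83 in RB and 10.72 and 10.78 in RB plus SMYD2 cells. In SMYD2 cells the 4 arrays read 10.89, 10.38, 10.54 and 10.67, so array 1 broke the pattern. Number 5 minus 3 was 0.51 ± 0.11 (1.43-fold, adjusted p = 0.0121) and 4 minus 3 was 0.45 ± 0.11 (1.37-fold, adjusted p = 0.0261). The first call was lost without array 5 with both genes (adjusted p = 0.0520), and the second in 7 of 16 omissions of 1 array, at up to 0.123 without RB array 4. A second probe set, at a mean signal of 5.64, gave 0.16 and 0.09 (adjusted p = 0.657 and 0.849). Over the numbers the adjusted p was 0.0135, and 1.341e-04 without SMYD2 array 1. Without that array number 4 minus 1, otherwise 0.24, was 0.40 (adjusted p = 0.00482).

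UQCR11 differed over the numbers as well (adjusted p = 0.0334, lost in 11 of 16 omissions of 1 array, at up to 0.103 without array 3 with both genes), with 4 minus 3 at 0.23 ± 0.06. The values by group above show that its arrays 4 and 5 were 13.25 to 13.41 with RB and 12.96 to 13.01 without. Its second probe set gave -0.04 for 4 minus 3.

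**Figure D4:**
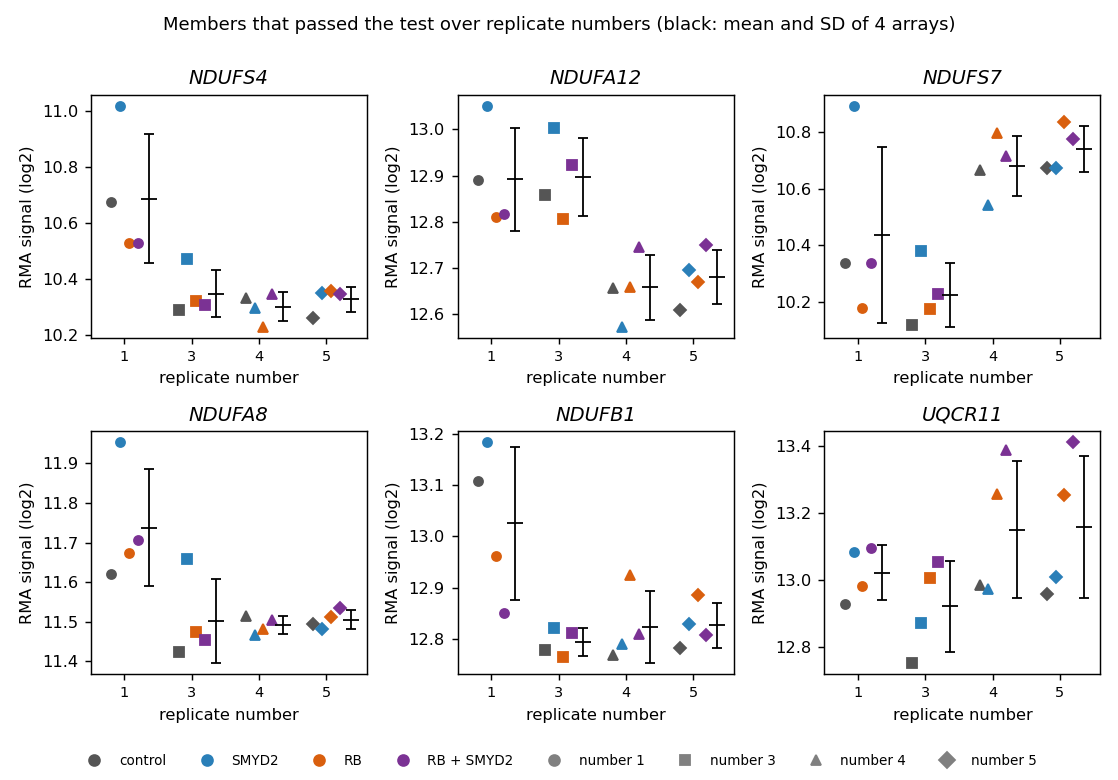
Log2 signals of the 6 members that differed among replicate numbers, by number, with colour for the group and the mean and SD of 4 arrays in black. NDUFS4, NDUFA8 and NDUFB1 are highest at number 1, NDUFA12 at numbers 1 and 3, and NDUFS7 at numbers 4 and 5 apart from SMYD2 array 1 at 10.89.

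Between pairs of numbers UQCRC2 and NDUFV1 passed as well. Number 3 against 1 called 3 members, all lower (NDUFS4, NDUFA8 and NDUFB1), where 8.41% of all genes passed, 3.5% higher and 4.91% lower. Number 4 against 1 called 5, of which NDUFS4, NDUFA12, NDUFA8 and NDUFB1 were lower and UQCRC2 higher (0.31 ± 0.10), against 13.3% of all genes, 5.49% higher and 7.84% lower. The UQCRC2 call was lost in 10 of 16 omissions of 1 array, at up to 0.175 without SMYD2 array 4. SMYD2 array 1 was among them, where it read 10.02, against 10.52 to 10.88 on the other arrays numbered 1. The second probe set of UQCRC2 gave 0.53 (adjusted p = 0.0551). Number 5 against 1 called 6, the same 5 and NDUFV1 (0.19 ± 0.06), against 13.3% of all genes, 6.15% higher and 7.19% lower. The NDUFV1 call was lost in 10 of 16 omissions, at up to 0.132 without control array 1, and its second probe set gave -0.00921; the UQCRC2 call was lost in 5, at up to 0.122 without SMYD2 array 5. A second probe set of NDUFS1, a core subunit with iron-sulfur clusters, gave -0.64 for 4 minus 1 (adjusted p = 0.00337) and -0.62 for 5 minus 1 (adjusted p = 0.00443), where its brightest one gave -0.20 and -0.16 without passing. Numbers 4 and 5 against 3 called 3 members each, NDUFA12 lower and NDUFS7 and UQCR11 higher, where 5.05% and 5.31% of all genes passed. Number 5 against 4 called 0 members and 0% of genes, with 0 members and 337 genes at an unadjusted p under 0.05. The arrays numbered 4 and 5 were thus close, with member differences of -0.07 to 0.06.

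Genes that work beside the 3 complexes were counted in the same fits, and their counts with RB stand against the 12.7% of all genes that passed. Of 19 complex I assembly factors, 4 passed the pooled RB test: NDUFAF1, which helps build the membrane arm (0.41 ± 0.06), and TIMMDC1 (0.20) rose, and NDUFAF4 (-0.29) and COA1 (-0.31) fell, with a list median of -0.09. NDUFAF1 also passed in RB against control (0.38 ± 0.08, adjusted p = 0.0130), where no subunit gene did. That call was lost in 3 of 16 omissions of 1 array, at up to 0.0586 without RB array 4. Of 12 genes for complex II and III assembly, cytochrome c1 and cytochrome c, 3 passed. TTC19, a complex III assembly factor, rose (0.31), and UQCC3 (-0.27) and CYC1, the cytochrome c1 of complex III itself (-0.13), fell.

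Of 15 complex IV genes, COX5A (-0.22) and COX7A2L (0.20), which helps join complexes III and IV, passed, and of 18 complex V genes 0 did. Of 14 regulators of mitochondrial biogenesis, 2 passed, both lower. TFAM, which packages and transcribes mitochondrial DNA, fell by 0.49 (SE 0.09, adjusted p = 0.00123), and NRF1, a transcription factor of respiratory genes, by 0.30 (SE 0.07, adjusted p = 0.00565). Of 7 mitochondrially encoded subunits 1 passed (COX1, 0.09). Of 12 TCA cycle genes 3 passed, with citrate synthase CS (-0.25) and IDH2 (-0.22) lower and IDH3G (0.20) higher. Of 16 genes for ubiquinone supply and other entry points 3 passed, with COQ3 (-0.37) and GPD2 (-0.38) lower and ETFDH (0.26) higher. The RB calls of COA1, CYC1, COX1, IDH2, IDH3G, GPD2 and ETFDH were lost in 6 to 12 of 16 omissions of 1 array, and that of COX7A2L in 1 (adjusted p = 0.0510 without RB array 4).

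Glycolytic genes and subunit genes had medians of opposite sign across the numbers. Of 18 glycolytic genes, 4 passed the pooled RB test, ALDOC (0.55) and PFKM (0.31) higher, ENO2 (-0.34) and PFKP (-0.32) lower; the PFKP call was lost in 11 of 16 omissions. Between numbers 3 and 1, however, 9 of 18 were higher and 0 lower, where 3.5% of all genes were higher and 4.91% lower. The glucose transporter SLC2A1 (0.68 ± 0.09) and ENO1 (0.43 ± 0.09) led them. The list median was 0.27, where the subunit members had -0.10. For numbers 4 and 5 against 1, 7 and 8 of 18 were higher, where 5.49% and 6.15% of all genes were. The list medians were 0.20 and 0.23. The mitochondrially encoded ND6 was higher in number 4 than in number 1 (0.71, adjusted p = 1.582e-04). It was the only 1 of 7 to pass, where 13.3% of all genes did.

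**Figure D5:**
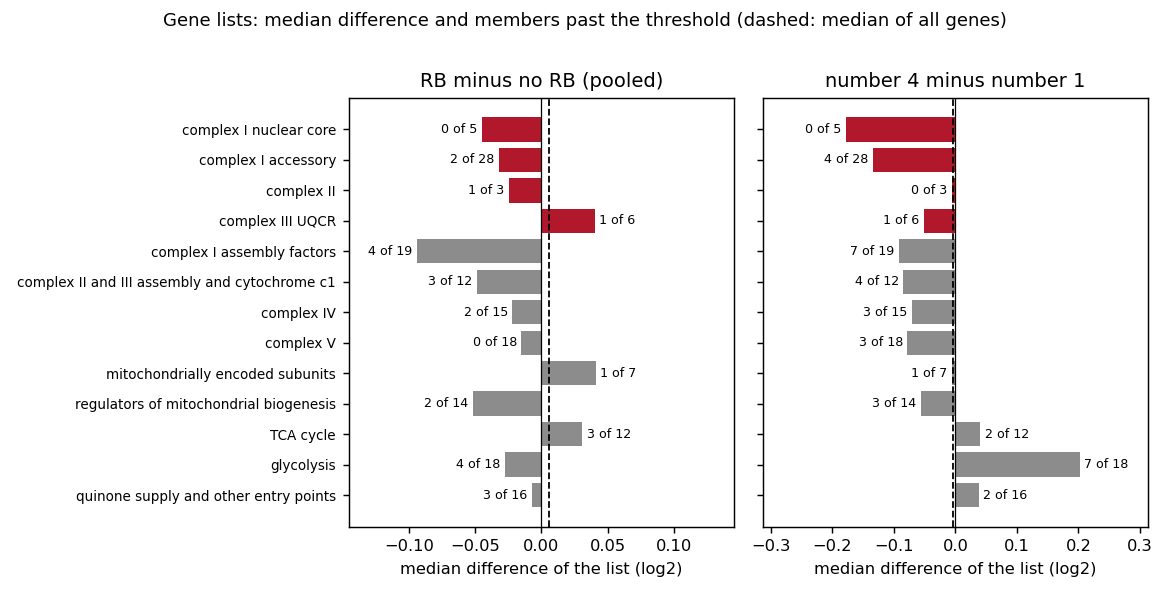
Median difference (log2) of each gene list for RB minus no RB (left) and number 4 minus number 1 (right), with the number of its genes past the threshold and the median of all genes dashed; lists of subunit genes are in red. In the right panel the complex I lists reach -0.18 and -0.13 while glycolysis reaches 0.20.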

How the data were processed

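Total RNA of 16 SAOS samples was read on 1 Affymetrix array design, 1 sample per array. The values deposited are log2 signals of 54675 probe sets, made by the authors with RMA per the submitters' processing notes. Version and whether all arrays were normalized together are not given in the sources used here. Arrays of 1 group correlated at 0.981 to 0.998 and were not treated as copies. RMA gives no detection call, and 4 arrays per group limit the precision.

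Each gene was read by its single-symbol probe set with the highest mean over 16 arrays (platform annotation; 41097 of the probe sets had 1 symbol, 1801 several, 11777 none). Members and gene lists were chosen with earlier results of these data known. All tests were two-sided and used limma 3.58.1 under R 4.3.3, with lmFit and trended eBayes. P-values were adjusted by Benjamini-Hochberg over all 19775 genes, at a threshold of 0.05. Groups were compared with 1 mean per group over all 16 arrays, and numbers with the group and the number as terms. Errors are SE for differences and SD for levels. The fit was tested on simulated data.

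Same-numbered arrays deviated together in every pair of groups except SMYD2 and RB: the lowest correlation of their deviations over genes was 0.145 in the 5 other pairs and -0.08 in that one. Equal numbers were therefore read as pairs in all comparisons but RB against SMYD2. The group fits above held no term for the number, except where the block is named, so their p-values are unpaired.

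Members named were the core subunits with a probe set, members past the threshold (or the 5 with the smallest p), and those extreme in level or spread. NDUFA2 and NDUFB6 fall outside that rule and were chosen after their values were seen. Of the other lists, genes were named for the largest differences or for passing the threshold. Alternatives were another scaling, other probe sets, a filter at a mean of 6, only the groups compared, array weights, no trend, the block, and each array left out. Promoters came from RefSeq (GRCh38.p14); no coordinates are given for probe sets.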

Additional observations from a re-analysis of the deposited data

Results flagged for a closer look

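In 10 of 128 groups of 4 arrays, over the 32 members named by rule, 1 array lay farther from the other 3 than Dixon's limit allows; chance flags about 1 in 20 groups. Arrays numbered 1 account for 6 of them. NDUFB1 and NDUFS4 were named because they differed between the numbers, so their flags cannot be set against that chance rate. The flags of the other members came at about that rate and are given as description only. NDUFB1 read 13.107 on control array 1 (others 12.77 to 12.78), 13.183 on SMYD2 array 1 (others 12.79 to 12.83) and 12.850 on array 1 with both genes (others 12.81). NDUFS4 read 10.676 on control array 1 (others 10.26 to 10.33). UQCRB, a small subunit of complex III, read 13.276 on SMYD2 array 1 (others 12.954 to 12.995), and NDUFAB1 12.973 on RB array 1 (others 12.85 to 12.87).

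Arrays numbered 3 account for the other 4. RB array 3 was low for NDUFA7, at 10.647 (others 10.88 to 10.90), and for NDUFB2, at 13.326 (others 13.42), and high for the non-coding NDUFV1-DT, at 7.658 (others 7.34 to 7.35). NDUFV2, a core subunit, read 11.202 on array 3 with both genes (others 11.28 to 11.29). In 0 of the 32 members did all 4 same-numbered pairs move one way in 1 setting and the opposite way in the other, for RB with and without SMYD2 or for SMYD2 with and without RB.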

How the results depend on the processing

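Of 624 alternatives run on the 27 calls of single members, 226 lost the call, 6 turned the direction and the rest kept both; all 6 turned with the second brightest probe set. These were UQCR11 (-0.10 in the pooled RB test, -0.0467 in RB plus SMYD2 against control and -0.0434 for number 4 against 3), NDUFS4 (0.0773 and 0.13 for numbers 3 and 4 against 1) and NDUFV1 (-0.00921 for number 5 against 1). Of 767 alternatives on members in RB against control, where none was called, 4 passed the threshold and 0 turned a called direction.

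Counts of members called moved by more than 1.5 times as follows. With the replicate number as a block they were 1 in RB against control, 7 in RB plus SMYD2 against SMYD2, 3 in RB against SMYD2 and 8 in the pooled RB test; in RB plus SMYD2 against control the count stayed at 2, and the SMYD2 and interaction counts at 0. For RB against SMYD2 the numbers were not taken as pairs (2 of 4 arrays correlated best with their own number). With array weights the counts were 3, 6, 7, 1 and 11 for RB against control, RB plus SMYD2 against SMYD2, RB plus SMYD2 against control, RB against SMYD2 and pooled RB, and 1 for number 3 against 1. With array medians subtracted they were 3 for RB plus SMYD2 against SMYD2 and 1 for RB plus SMYD2 against control. With the mean of a gene's probe sets they were 0, 0, 2, 1 and 0 for RB plus SMYD2 against SMYD2 and against control, pooled RB, and numbers 4 and 5 against 3. With the second brightest probe set they were 0 for RB plus SMYD2 against control, 1 for pooled RB, 0 for number 3 against 1, and 1 and 0 for numbers 4 and 5 against 3. With genes of mean 6 or more they were 3, 1 and 10 for RB plus SMYD2 against SMYD2, RB against SMYD2 and number 4 against 1, and with only the groups compared 0 for RB plus SMYD2 against SMYD2. Without the variance trend they were 1 for RB plus SMYD2 against control, 3 over all numbers, and 1, 3, 3, 1 and 1 for numbers 3, 4 and 5 against 1 and 4 and 5 against 3. Without the group term they were 3, 0, 2, 1, 0 and 1 in the same order. The cause was not tested.

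Leaving out each array in turn gave 0 to 2 members in RB plus SMYD2 against SMYD2, 0 to 3 in RB plus SMYD2 against control, 0 to 1 in RB against SMYD2, 1 to 5 in the pooled RB test and 2 to 8 over all numbers. It gave 0 to 6, 1 to 11 and 1 to 9 for numbers 3, 4 and 5 against 1, and 0 to 4 for numbers 4 and 5 against 3. The lowest counts came without control array 1 over all numbers (2), without control array 1 or 3 for number 3 against 1 (0), without SMYD2 array 4 for 4 against 1 (1), and without control or SMYD2 array 5 for 5 against 1 (1). For 4 against 3 they came without control array 3 or 4, SMYD2 array 3, RB array 4 or array 3 with both genes (0), and for 5 against 3 without array 5 with both genes (0). The highest for numbers 3 and 4 against 1 were 6 without array 1 with both genes and 11 without RB array 1, and for 5 against 1 were 9 without either; over all numbers 8 came without array 1 with both genes. Without SMYD2 array 1 the counts for numbers 3, 4 and 5 against 1 were 1, 6 and 4.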
